A study of Mus musculus with 6 samples.

Results

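The matrix metalloproteinases (Mmp), the Adamts and Adamts-like genes (Adamtsl) and the tissue inhibitors of metalloproteinases (Timp) were followed in mouse embryonic stem (ES) cells that had been taken toward skeletal muscle. Members were all genes whose microarray probe sets carried a single gene symbol of the form Mmp, Adamts, Adamtsl or Timp followed by a number. This gave 49 genes, measured by 53 probe sets, out of 22180 genes and 23521 single-symbol probe sets: 22 Mmp, 18 Adamts, 5 Adamtsl and 4 Timp genes. Mmp15 and Adamts2 were not analysed here. The Pax7-GFP group comprised 3 samples of cells sorted for green fluorescence from a Pax7 reporter line after 3 weeks of myogenic differentiation. The ES group comprised 3 samples of undifferentiated, pluripotent mouse ES cells. Both came from total RNA with 1 array per sample, and the replicates are called biological in the titles, with no word on how cultures were kept apart. The gate follows the activity of the reporter, so the sorted cells are those with reporter fluorescence and need not be one cell type. Whether the ES cells were sorted too is not stated.

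Matrix metalloproteinases are zinc enzymes that cut collagens, gelatins and other matrix proteins outside the cell, and most are made as inactive proenzymes. Adamts enzymes are related secreted proteases with thrombospondin repeats, which cut proteoglycans such as versican and process procollagens, while Adamtsl proteins carry the repeats without the protease domain. Timps bind and block these enzymes. In muscle, the matrix around satellite cells and fibres is remodelled during development and repair, and Mmp2 and Mmp9 are the members best known there.

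All values are RMA signals on the log2 scale, fold changes are Pax7-GFP minus ES, and a gene was called when its adjusted p was under 0.05 and its absolute log2 fold change at least 1, which is a 2-fold difference. Array medians lay between 5.61 and 5.69. Pax7 averaged 10.90 ± 0.25 in Pax7-GFP cells and 5.70 ± 0.073 in ES cells, and Nanog averaged 5.13 ± 0.15 in Pax7-GFP cells and 12.02 ± 0.072 in ES cells (SD, n = 3 each), so the arrays followed their labels. All 8 skeletal muscle markers rose and all 8 pluripotency markers fell. Of 11 fibroblast and mesenchyme markers 6 rose and 0 fell (10 higher and 0 lower at an unadjusted p under 0.05 in limma). The count was 5 without Pax7-GFP replicate 1 or ES replicate 1, when Postn stood at 0.95 and 0.96, and 7 without Pax7-GFP replicate 3 or ES replicate 3, when Lum was called at 1.09 and 1.05. Their mean signal lay between 7.72 and 8.06 on the Pax7-GFP arrays and between 6.18 and 6.41 on the ES arrays, and Lum and Tcf21 stayed below the array median on all 6 arrays. Some of these markers were bright on both sets of arrays. Col1a1 averaged 9.90 in Pax7-GFP cells and 9.37 in ES cells, and Postn averaged 9.39 in Pax7-GFP cells and 8.31 in ES cells. The labels do not say whether the ES cultures held feeder cells, so the ES signals of the members may include RNA of other cells, which was not tested. Many of the proteases below are made by fibroblasts too. How much of each difference comes from fibroblasts was not tested, and in bulk RNA fewer cells of a type and less RNA per cell cannot be told apart. Of 9 macrophage and blood markers 0 rose and 2 fell (2 higher and 2 lower at an unadjusted p under 0.05 in limma). The 2 that fell were bright in ES cells: Cd68 averaged 7.59 in Pax7-GFP cells and 9.15 in ES cells, and Laptm5 averaged 5.43 in Pax7-GFP cells and 8.24 in ES cells. The other 7, among them Ptprc and Csf1r, lay below the array median on all 6 arrays, and of these Tyrobp, at 0.54, and Lyz2, at 0.54, passed the adjusted p toward higher signal with under 2-fold. Of 8 endothelial markers 1 rose and 1 fell.

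Genes of a few secreted or membrane-bound enzymes and of 1 inhibitor carried the rises. Of the 49 members, 8 rose and 1 fell, and 12 more passed the adjusted p with a difference under 2-fold, 8 of them toward higher and 4 toward lower signal in Pax7-GFP cells. The remaining 28 passed neither threshold. Among all 22180 genes 14.5% were called, 7.34% as higher and 7.15% as lower, against 16.3% of the members as higher and 2.04% as lower. The median log2 fold change was 0.12 over the members and 0.024 over all genes. By family, 5 of 18 Adamts, 2 of 22 Mmp, 1 of 4 Timp and 0 of 5 Adamtsl genes rose, and 1 Mmp gene fell. For the Adamtsl genes the same limma test gave 2 higher and 0 lower at an unadjusted p under 0.05. The groups did not overlap in 26 members, with Pax7-GFP above ES in 20 and below it in 6, while over all genes they did not overlap in 51.9%, with Pax7-GFP above in 26.2% and below in 25.6%.

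**Figure D1:**
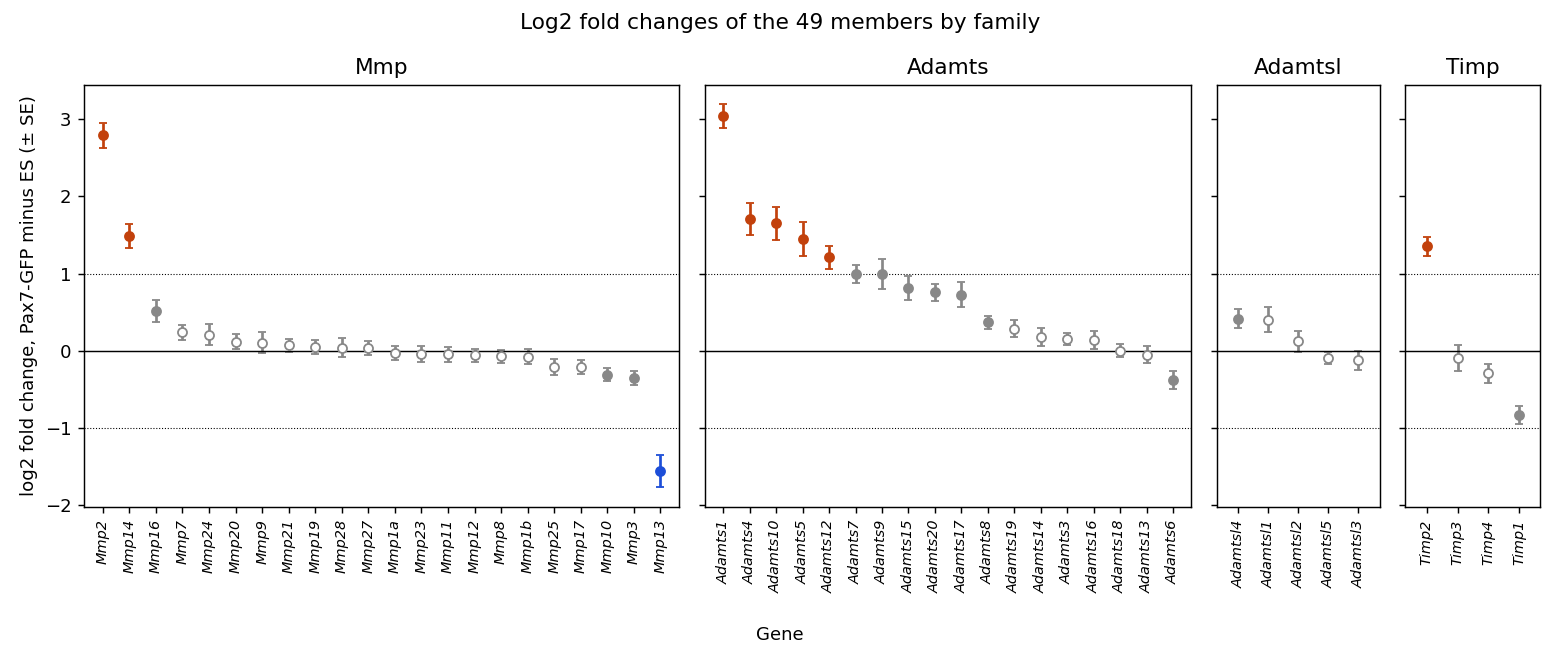
Log2 fold changes of the 49 members, with their standard errors (Pax7-GFP minus ES); each point is 1 gene, by family and by size. Orange points rose, the blue point fell, grey filled points passed the adjusted p with under 2-fold and open points passed neither; the dotted lines mark a 2-fold difference. The rises run up to 3.05 for Adamts1 and 2.79 for Mmp2, and the single fall is Mmp13 at -1.57.

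Mmp2 rose more than any other Mmp gene measured. It encodes gelatinase A, which cuts denatured collagen and collagen IV of basement membranes. Its signal was 10.77, 10.26 and 10.27 on the Pax7-GFP arrays, against 7.42, 7.77 and 7.74 on the ES arrays. The lowest Pax7-GFP array stood 2.49 above the highest ES array. The log2 fold change was 2.79 (SE 0.16, adjusted p = 3.06e-06), or 6.93-fold. The other gelatinase, Mmp9, had 5.34, 5.83 and 5.82 on the Pax7-GFP arrays and 5.60, 5.50 and 5.57 on the ES arrays, so its groups overlapped and lay near the array median. Its log2 fold change was 0.10 (SE 0.14, adjusted p = 0.612).

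Mmp14 and Timp2 rose as well. Mmp14 is the membrane-type enzyme that activates proMmp2 at the cell surface, and Timp2 is the inhibitor that links the proenzyme to Mmp14 in that step. Mmp14 had signals of 9.72, 9.13 and 9.47 on the Pax7-GFP arrays, against 7.79, 8.04 and 8.03 on the ES arrays. This is a log2 fold change of 1.49 (SE 0.15, adjusted p = 8.96e-05). Timp2 had 10.63, 10.87 and 10.97 on the Pax7-GFP arrays, against 9.25, 9.56 and 9.60 on the ES arrays, a log2 fold change of 1.35 (SE 0.13, adjusted p = 5.81e-05). In both genes every Pax7-GFP array lay above every ES array, by at least 1.09 for Mmp14 and 1.03 for Timp2, and signals were well above the array median in ES cells already. Mmp14 stood at an adjusted p of 0.0766 and Timp2 at 0.142 in limma's test against a 2-fold difference, so a difference of more than 2-fold was not shown for either, whereas Mmp2 passed that test.

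Promoters of Mmp14 and Timp2 are shown because both genes rose and their products act in the same step. They were taken from RefSeq (GRCm38.p6), which held promoters for 34 of the 49 members, and the 250 bases before the annotated start were searched on both strands. The motifs were TGANTCA, which AP-1 factors bind, CAGCTG, an E-box of the kind that myogenic factors bind, and the core promoter motif TATAAA. Capitals mark matches, no matches overlapped in the sequences shown, and the sequences run 5′ to 3′ up to the base before the start.
Mmp14 (chr14:54431348-54431597, + strand): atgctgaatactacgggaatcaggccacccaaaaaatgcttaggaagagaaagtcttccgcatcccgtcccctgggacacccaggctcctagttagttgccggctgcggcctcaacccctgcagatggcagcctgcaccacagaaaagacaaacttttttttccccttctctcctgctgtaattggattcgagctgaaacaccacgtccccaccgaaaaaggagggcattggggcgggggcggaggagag
Timp2 (chr11:118355412-118355661, - strand): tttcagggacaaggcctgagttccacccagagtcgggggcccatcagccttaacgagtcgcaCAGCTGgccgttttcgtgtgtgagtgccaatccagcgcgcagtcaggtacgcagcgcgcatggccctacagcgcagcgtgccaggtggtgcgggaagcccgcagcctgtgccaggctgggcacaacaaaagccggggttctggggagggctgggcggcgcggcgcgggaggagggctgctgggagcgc
The Mmp14 window held none of the 3 motifs, and the Timp2 window held 1 CAGCTG, 188 bases before the start. Of all 32851 promoters listed, 13.0% held CAGCTG in the same window, and 8 of the 37 member promoters did (21.6%). A match describes the letters and is no evidence of binding.

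The other membrane-type enzymes showed smaller differences. Mmp16, which also activates proMmp2, had 5.81, 5.28 and 5.29 on the Pax7-GFP arrays, against 4.92, 4.91 and 5.01 on the ES arrays. The groups did not overlap, and replicate 1 stood above the others, but the log2 fold change of 0.51 (SE 0.15, adjusted p = 0.0217) was under 2-fold. Mmp16 missed the adjusted p with a signal floor (0.088) and after quantile normalization (0.0502). It also missed it without ES replicate 1, 2 or 3 (0.0717, 0.0760 and 0.0519). Mmp24 was at 0.21, Mmp25 at -0.21 and Mmp17 at -0.21 on the log2 fold change scale, with adjusted p-values of 0.285, 0.146 and 0.105. Mmp17 and Mmp25 are anchored by a lipid tail rather than a transmembrane stretch.

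Mmp13 was the only member called lower. It encodes collagenase 3, the main interstitial collagenase of the mouse, known from cartilage and bone. Its signal was 4.44, 4.50 and 3.94 on the Pax7-GFP arrays, against 5.44, 6.12 and 6.02 on the ES arrays. The highest Pax7-GFP array lay 0.94 below the lowest ES array, and 2 of the ES arrays lay above the array median. Mmp13 fell by 1.57 on the log2 scale (SE 0.21, adjusted p = 0.000399). With a signal floor at the lower quartile its log2 fold change was -1.09 (adjusted p = 0.0169). In limma's test against a 2-fold difference its adjusted p was 0.145, so a fall of more than 2-fold was not shown. When genes with a mean signal in the lower part of the table were left out, Mmp13 was among those removed, so the count of lower members was then 0. Among 8 cartilage and bone markers 1 rose (Sox9) and 0 fell (1 higher and 1 lower at an unadjusted p under 0.05 in limma).

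Mmp13 is the first of 10 Mmp genes that lie side by side on chromosome 9, with no other protein-coding gene between them in the RefSeq gene table, in the order Mmp13, Mmp12, Mmp1b, Mmp3, Mmp1a, Mmp10, Mmp8, Mmp27, Mmp20 and Mmp7. This cluster holds the collagenases, the stromelysins Mmp3 and Mmp10, the macrophage elastase Mmp12, the matrilysin Mmp7 and the enamel protease Mmp20. Of the 10 genes 0 rose and 1 fell (1 higher and 3 lower at an unadjusted p under 0.05 in limma), and the median log2 fold change was -0.068. In the other 12 Mmp genes 2 rose and 0 fell (3 higher and 1 lower at an unadjusted p under 0.05), with a median of 0.057. Called were 10% of the cluster genes and 16.7% of the other Mmp genes, against 14.5% of all genes. Neither count stood far from that share. No array gave a signal above its own median for 8 of the 10 cluster genes, whereas over all genes 36.4% stayed below the median on all 6 arrays. The deposited values carry no detection calls, so these genes cannot be called absent.

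Mmp3 and Mmp10 also passed the adjusted p, both toward lower signal. Mmp3 had 4.84, 4.82 and 4.90 on the Pax7-GFP arrays, against 5.19, 5.33 and 5.10 on the ES arrays, a log2 fold change of -0.35 (SE 0.087, adjusted p = 0.0115). Mmp10 had 5.43, 5.55 and 5.54 on the Pax7-GFP arrays, against 5.82, 5.89 and 5.73 on the ES arrays, a log2 fold change of -0.31 (SE 0.085, adjusted p = 0.0182). In both the groups did not overlap, and neither reached 2-fold. Mmp10 missed the adjusted p with the replicate number as a block (0.0504) and without ES replicate 1 or 2 (0.0647 and 0.0815). Mmp3 missed it without ES replicate 2 (0.054). The remaining 7 cluster genes lay between -0.081 (Mmp1b) and 0.24 (Mmp7) on the log2 fold change scale. Mmp7 had a second probe set, at -0.095, which ran the other way. Mmp1a and Mmp1b are close copies, so their probe sets may not separate them.

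**Figure D2:**
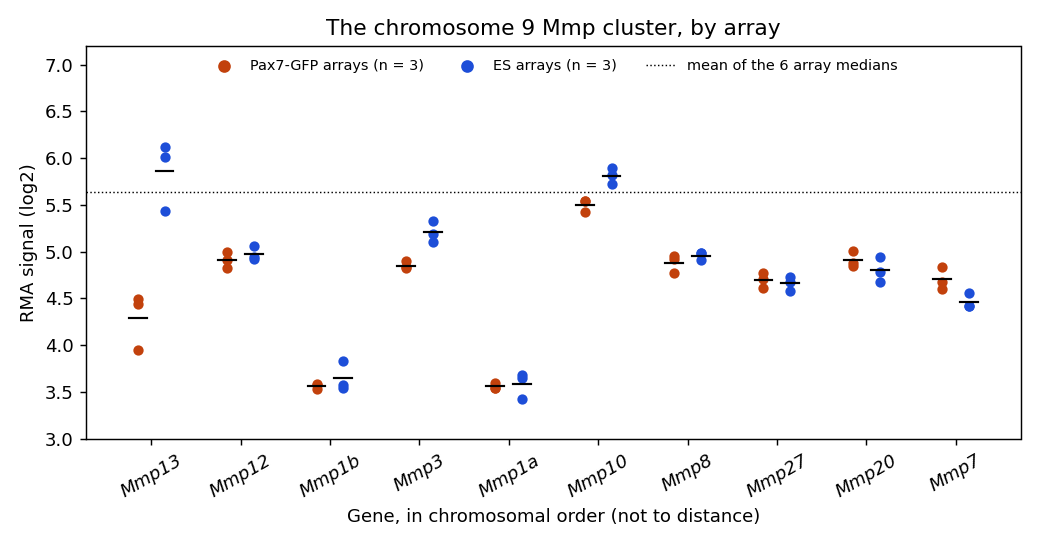
RMA signal on the log2 scale of the 10 cluster genes in chromosomal order; points are arrays, bars are group means of 3 and the dotted line is the mean of the 6 array medians. Mmp13 is the gene whose groups stand farthest apart, at 3.94 to 4.50 in Pax7-GFP cells and 5.44 to 6.12 in ES cells.

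Most promoters of the cluster shared a motif that the choice of genes did not use. The cluster genes are related neighbours, so their promoters are not independent cases. Of its 10 genes 8 held TGANTCA in the 250 bases before a start (8 of 12 promoters, 66.7%), against 6.75% of all promoters and 0 of the 8 promoters of the other Mmp genes with an entry. The 8 promoters are shown from 100 bases before the start, with matches of TGANTCA and TATAAA in capitals.
Mmp13 (chr9:7272414-7272513, + strand): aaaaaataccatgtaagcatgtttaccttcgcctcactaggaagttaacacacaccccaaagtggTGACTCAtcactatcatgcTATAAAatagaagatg
Mmp12 (chr9:7347274-7347373, + strand): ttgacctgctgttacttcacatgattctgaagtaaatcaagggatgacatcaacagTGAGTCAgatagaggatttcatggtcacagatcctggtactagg
Mmp1b (chr9:7388027-7388126, - strand): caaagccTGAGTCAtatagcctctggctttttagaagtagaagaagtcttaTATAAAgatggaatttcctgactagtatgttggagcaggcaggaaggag
Mmp3 (chr9:7445722-7445821, + strand): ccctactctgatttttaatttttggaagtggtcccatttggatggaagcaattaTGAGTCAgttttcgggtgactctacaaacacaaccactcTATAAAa
Mmp1a (chr9:7464041-7464140, + strand): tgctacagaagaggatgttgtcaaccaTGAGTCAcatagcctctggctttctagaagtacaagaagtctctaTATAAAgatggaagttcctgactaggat
Mmp10 (chr9:7502242-7502341, + strand): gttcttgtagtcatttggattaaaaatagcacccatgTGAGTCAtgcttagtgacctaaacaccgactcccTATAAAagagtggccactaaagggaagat
Mmp20 (chr9:7628131-7628230, + strand): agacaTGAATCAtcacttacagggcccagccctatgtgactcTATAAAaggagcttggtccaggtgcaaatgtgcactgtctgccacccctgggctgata
Mmp7 (chr9:7691990-7692089, + strand): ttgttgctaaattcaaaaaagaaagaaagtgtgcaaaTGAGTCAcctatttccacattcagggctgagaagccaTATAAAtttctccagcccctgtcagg
All 8 matches lay between 35 and 95 bases before the annotated start, and 7 of the 8 genes also held TATAAA, which 12.4% of all promoters did. Mmp13 carried TGACTCA, Mmp20 carried TGAATCA and the other 6 carried TGAGTCA. Of these 8 genes 1 fell, Mmp13, and 0 rose. The 4 members that rose and had an entry (Mmp14, Timp2, Adamts1 and Adamts12) held no TGANTCA in this window. As only 6.75% of all promoters held it, its absence from so few promoters says little. Mmp2, Adamts4, Adamts5 and Adamts10, which also rose, had no entry. Whether the motif goes with the calls was not tested.

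The remaining Mmp genes showed no called difference. Mmp11, a stromelysin made by stromal cells and activated by furin, averaged 6.90 in Pax7-GFP cells and 6.95 in ES cells, a log2 fold change of -0.049 (adjusted p = 0.753), and its second probe set was at -0.29. Mmp19, Mmp21, Mmp23 and Mmp28 lay between -0.041 and 0.071 on the log2 fold change scale. Their adjusted p-values ran from 0.569 to 0.836. A probe set shared by Mmp24 and BC029722, which was not counted as a member, differed by -0.0094 between group means.

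The Adamts genes leaned toward higher signal. Of the 18 genes 5 rose and 0 fell, 6 more passed the adjusted p toward higher signal and 1 toward lower, and 6 passed neither threshold (12 higher and 1 lower at an unadjusted p under 0.05 in limma). By the adjusted p alone 12 of 18 passed, against 41.1% of all genes. Their median log2 fold change was 0.74, against 0.0036 for the Mmp genes and 0.024 for all genes. In 13 of the 18 every Pax7-GFP array lay above every ES array, an arrangement that 26.2% of all genes showed.

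**Figure D3:**
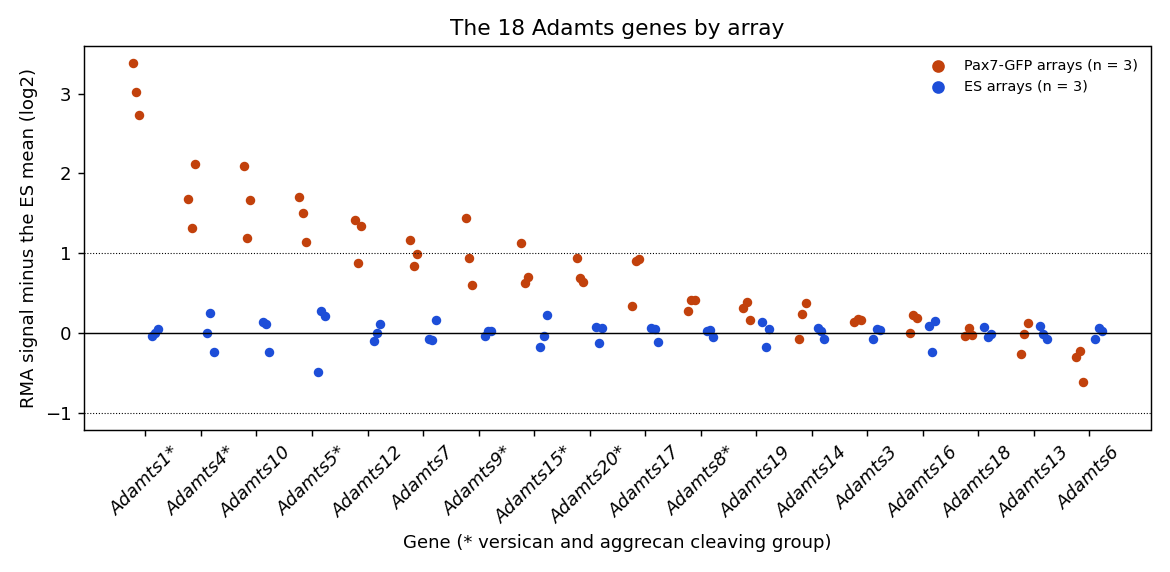
Signal of the 18 Adamts genes on each array as the difference from the ES mean on the log2 scale, with Pax7-GFP arrays in orange and ES arrays in blue; dotted lines mark a 2-fold difference and asterisks the group that cuts versican and aggrecan. All 7 genes with an asterisk have every Pax7-GFP array above every ES array, while Adamts6 has every Pax7-GFP array below.

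Adamts1 rose more than any other member measured. It encodes a secreted protease that cuts versican and aggrecan. Its signal was 9.50, 9.15 and 8.85 on the Pax7-GFP arrays, against 6.08, 6.11 and 6.17 on the ES arrays. The ES arrays lay within 0.1 of each other, and the lowest Pax7-GFP array stood 2.68 above them. The log2 fold change was 3.05 (SE 0.15, adjusted p = 1.43e-06), or 8.26-fold. Its promoter is shown as that of the largest rise.
Adamts1 (chr16:85803114-85803363, - strand): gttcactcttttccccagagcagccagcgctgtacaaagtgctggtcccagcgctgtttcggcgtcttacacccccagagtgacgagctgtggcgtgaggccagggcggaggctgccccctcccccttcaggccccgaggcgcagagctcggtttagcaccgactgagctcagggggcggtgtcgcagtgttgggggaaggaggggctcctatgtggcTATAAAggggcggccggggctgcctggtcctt
It held 1 TATAAA, 32 bases before the start, in capitals, and no TGANTCA or CAGCTG.

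All 7 enzymes that act on versican and aggrecan (Adamts1, Adamts4, Adamts5, Adamts8, Adamts9, Adamts15 and Adamts20) passed the adjusted p toward higher signal, as did 19.7% of all genes, and 3 of the 7 did so with at least 2-fold. Adamts5, an aggrecanase, lies next to Adamts1 on chromosome 16. It had 7.88, 7.68 and 7.32 on the Pax7-GFP arrays, against 5.68, 6.46 and 6.39 on the ES arrays, and ES replicate 1 stood below the other ES arrays. Adamts5 rose by 1.45 (SE 0.22, adjusted p = 0.000898). Adamts4, the other main aggrecanase, had 7.09, 6.73 and 7.53 on the Pax7-GFP arrays, against 5.40, 5.66 and 5.17 on the ES arrays. Adamts4 rose by 1.71 (SE 0.20, adjusted p = 0.000222). In limma's test against a 2-fold difference Adamts4 stood at an adjusted p of 0.0543 and Adamts5 at 0.386. A difference of more than 2-fold was therefore not shown for either, whereas Adamts1 passed that test.

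The other 4 of these enzymes stayed under 2-fold. Adamts9, a versican-cutting enzyme, had 9.46, 8.96 and 8.61 on the Pax7-GFP arrays, against 7.97, 8.04 and 8.03 on the ES arrays. The Pax7-GFP arrays spread far more than the ES arrays but stayed above them. Its log2 fold change was 0.99 (SE 0.19, adjusted p = 0.00294), just short of the minimum, and it was called higher at 1.19 without Pax7-GFP replicate 3, at 1.02 without Pax7-GFP replicate 2, at 1.01 without ES replicate 2 and at 1.003 without ES replicate 3, as well as at 1.04 after quantile normalization. Adamts15 was at 0.81 (SE 0.16, adjusted p = 0.00303) and Adamts20, a protease known from a coat pigment mutant of the mouse, at 0.76 (SE 0.11, adjusted p = 0.000604). Adamts8, which neighbours Adamts15 on chromosome 9, was at 0.37 (SE 0.083, adjusted p = 0.00722), and its second probe set at 0.12 did not pass.

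Versican itself (Vcan), a large matrix proteoglycan, rose. It had 10.93, 10.72 and 10.84 on the Pax7-GFP arrays, against 8.56, 8.73 and 8.63 on the ES arrays, a log2 fold change of 2.19 (SE 0.092, adjusted p = 5.54e-07). Aggrecan (Acan), the proteoglycan of cartilage, was at -0.35 (adjusted p = 0.0313) and below the array median on all 6 arrays. Brevican (Bcan) and neurocan (Ncan), found in brain, were at -0.0015 and -0.096.

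Among the remaining Adamts genes 2 rose. Adamts10, known in humans for a connective tissue disorder tied to fibrillin, had 7.54, 6.63 and 7.11 on the Pax7-GFP arrays, against 5.58, 5.55 and 5.20 on the ES arrays. Adamts10 rose by 1.65 (SE 0.22, adjusted p = 0.000365). Adamts12, which can cut the cartilage protein Comp, had 8.24, 7.71 and 8.17 on the Pax7-GFP arrays, against 6.73, 6.83 and 6.94 on the ES arrays. Its log2 fold change was 1.21 (SE 0.14, adjusted p = 0.000218). In limma's test against a 2-fold difference Adamts10 stood at an adjusted p of 0.0971 and Adamts12 at 0.823. A difference of more than 2-fold was therefore not shown for either. In both genes Pax7-GFP replicate 2 was the lowest of its group and still lay above every ES array.

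Adamts7, the relative of Adamts12 that also cuts Comp, had 7.47, 7.14 and 7.30 on the Pax7-GFP arrays, against 6.23, 6.22 and 6.47 on the ES arrays. At 0.996 (SE 0.11, adjusted p = 0.000173) its log2 fold change fell just short of the minimum, and it was called at 1.08 without Pax7-GFP replicate 2 and at 1.08 without ES replicate 3. Adamts17 was at 0.72 (SE 0.16, adjusted p = 0.00661). Adamts6 was the only Adamts gene past the adjusted p toward lower signal. It had 6.07, 6.15 and 5.76 on the Pax7-GFP arrays, against 6.29, 6.43 and 6.40 on the ES arrays, a log2 fold change of -0.38 (SE 0.11, adjusted p = 0.0288). Adamts6 missed the adjusted p with a signal floor (0.0779) and without Pax7-GFP replicate 3 (0.0624). It also missed it without ES replicate 1, 2 or 3 (0.053, 0.103 and 0.0925).

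The 6 Adamts genes past neither threshold were Adamts3, Adamts13, Adamts14, Adamts16, Adamts18 and Adamts19, with log2 fold changes between -0.053 and 0.29. Adamts3 and Adamts14, which trim the amino-terminal propeptide from fibrillar procollagens, were at 0.16 and 0.18. A second Adamts14 probe set was at 0.32 and passed the adjusted p when each probe set was tested (adjusted p = 0.00951). Adamts13, the protease that cuts von Willebrand factor, was at -0.053 (adjusted p = 0.764). Of the 5 Adamtsl genes Adamtsl4 passed the adjusted p with under 2-fold, at 0.41 (SE 0.12, adjusted p = 0.0255). Adamtsl4 missed it with a signal floor (0.0797), without Pax7-GFP replicate 2 or 3 (0.0713 and 0.0640) and without ES replicate 3 (0.0792). Adamtsl1, Adamtsl2, Adamtsl3 and Adamtsl5 lay between -0.12 and 0.40.

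The 4 Timp genes did not move together. Timp2, described above, rose. Timp1, a broad inhibitor that is induced by many growth factors, had 9.46, 9.83 and 9.87 on the Pax7-GFP arrays, against 10.53, 10.62 and 10.50 on the ES arrays. The groups did not overlap, and the log2 fold change of -0.83 (SE 0.12, adjusted p = 0.000602) passed the adjusted p with under 2-fold. Timp3, the inhibitor that stays bound to the matrix, had 7.59, 8.30 and 7.94 on the Pax7-GFP arrays and 7.92, 8.04 and 8.15 on the ES arrays. Its groups overlapped, at a log2 fold change of -0.096 (SE 0.17, adjusted p = 0.709). Timp4 had 4.83, 5.29 and 4.94 on the Pax7-GFP arrays and 5.36, 5.27 and 5.30 on the ES arrays, all below the array median, with a log2 fold change of -0.29 (SE 0.12, adjusted p = 0.0941).

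**Figure D4:**
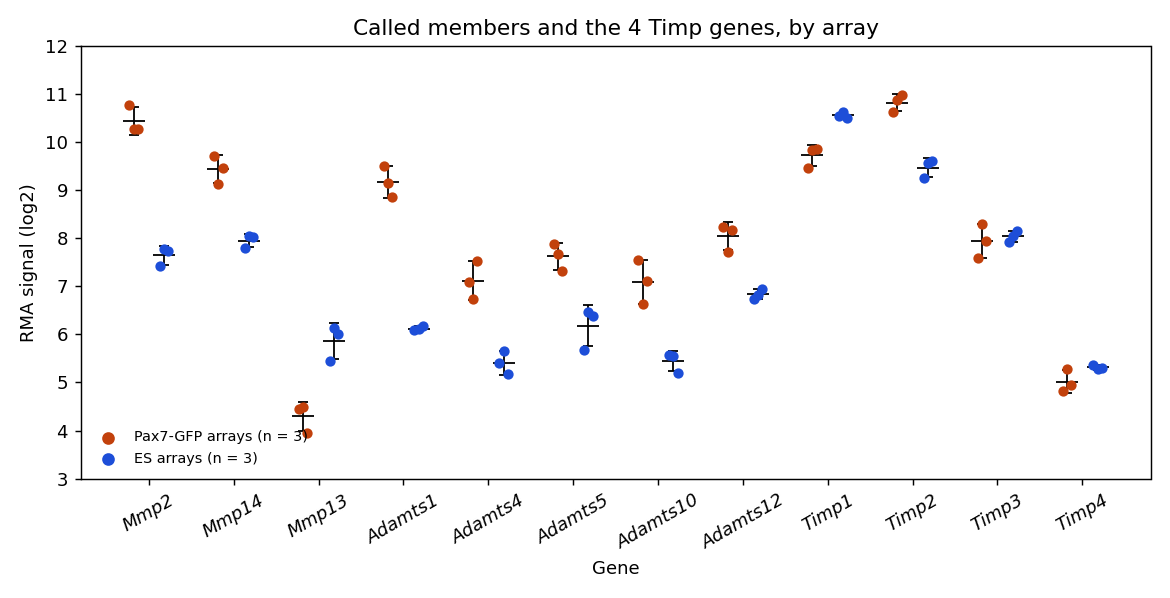
RMA signal on the log2 scale of the 9 called members and the other 3 Timp genes; points are arrays, bars are the mean and SD of 3. Pax7-GFP and ES arrays are separate for the called members and Timp1, and overlap for Timp3 and Timp4.

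Each of Timp1, Timp3 and Timp4 lies inside the span of a synapsin gene in the RefSeq table. Syn1, which spans Timp1 and encodes a synaptic vesicle protein, fell by 1.16 (SE 0.10, adjusted p = 3.79e-05), with 5.82, 6.07 and 5.76 on the Pax7-GFP arrays, against 6.997, 7.02 and 7.12 on the ES arrays. Syn3, which spans Timp3, was at -0.14, and Syn2, which spans Timp4, at 0.15 (adjusted p = 0.378 and 0.349). Whether the Timp1 and Syn1 probe sets read separate transcripts was not tested.

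Within groups the called members shared some array order. ES replicate 1 was the lowest ES array for 7 of the 9 called members (Mmp2, Mmp14, Mmp13, Adamts1, Adamts5, Adamts12 and Timp2) and also for 7 of the 11 fibroblast and mesenchyme markers, whose mean signal was 6.18 there and 6.41 and 6.35 on the other ES arrays. Pax7-GFP replicate 1 was the highest of its group for 6 of the 9 members and for 8 of the 11 markers, whose mean was 8.06 there and 7.86 and 7.72 on the other Pax7-GFP arrays. At the low end of the Pax7-GFP group members and markers differed. Replicate 2 was lowest for 5 of the 9 members and 4 of the 11 markers, and replicate 3 for 3 members and 6 markers. How often these arrays ranked so over all genes was not counted. Some gaps were small, as for Adamts1 at 6.08, 6.11 and 6.17 on the ES arrays. The part of fibroblasts in the members' values was not tested. All 9 calls were kept in the same direction when any single array was left out. The median SD within a group was 0.18 in Pax7-GFP and 0.099 in ES arrays over the members, and 0.14 and 0.084 over all genes.

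Partner genes of these proteases, from 5 lists of 59 measured genes, changed in both directions, with 17 higher, 7 lower and 35 not called. This is 28.8% higher and 11.9% lower, against 7.34% and 7.15% of all genes. By list the share higher ran from 9.09% (Adam genes) to 52.9% (substrates). The share lower ran from 0% (substrates) to 25% (astacins and procollagen processing). The lists were chosen with earlier results of these data known, so these shares only describe them. No list was tested as a set. Among 13 activators and genes of the plasminogen system 2 rose and 2 fell. Plat and Plau, the tissue and urokinase plasminogen activators, rose by 3.36 (SE 0.25, adjusted p = 1.32e-05) and 2.51 (SE 0.095, adjusted p = 3.08e-07). Plat had 8.77, 9.74 and 9.80 on the Pax7-GFP arrays, against 6.07, 6.06 and 6.11 on the ES arrays. Pcsk6, a proprotein convertase, fell by 2.74 (SE 0.082, adjusted p = 8.87e-08). Furin, the convertase that activates Mmp14 and many Adamts proenzymes, was at 0.92 (SE 0.12, adjusted p = 0.000324), under 2-fold, and was called at 1.03 without Pax7-GFP replicate 2.

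Of 10 genes listed under other inhibitors and clearance 3 rose and 1 fell, and of the 3 that rose only Reck is an Mmp inhibitor. Lrp1, the endocytic receptor that clears several of these proteases, rose by 1.57 (SE 0.19, adjusted p = 0.000264), and Serpinf1, a secreted serpin, by 1.45 (SE 0.14, adjusted p = 6.26e-05). Reck, a membrane-anchored Mmp inhibitor, rose by 1.18 (SE 0.25, adjusted p = 0.00536), with 8.65, 7.74 and 7.63 on the Pax7-GFP arrays, against 6.69, 6.77 and 7.04 on the ES arrays. A2m, a protease trap of plasma, fell by 1.12 (SE 0.17, adjusted p = 0.000814). Without Pax7-GFP replicate 1, Reck stood at 0.85 and A2m at -0.97, so 2 genes of this list were then higher and 0 lower. With a signal floor Reck missed the threshold (adjusted p = 0.0526).

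Of 11 Adam genes, relatives of the Adamts genes whose products are not all active proteases, 1 rose and 2 fell. Adam10, a sheddase of Notch and other receptors, rose by 1.11 (SE 0.10, adjusted p = 5.57e-05). Adam23 fell by 1.94 (SE 0.19, adjusted p = 6.43e-05) and Adam15 by 1.01 (SE 0.12, adjusted p = 0.000185). Averaging the probe sets of Adam15 gave -0.37, and its value was -0.89 without Pax7-GFP replicate 3 and -0.99 without ES replicate 1 or ES replicate 2, so 1 Adam gene was then lower. Of 8 astacin proteases and procollagen processing genes 2 rose and 2 fell. Bmp1, the procollagen C-proteinase, rose by 1.37 (SE 0.19, adjusted p = 0.000509). Its enhancers went opposite ways. Pcolce rose by 1.08 (SE 0.079, adjusted p = 1.29e-05) and Pcolce2 fell by 2.92 (SE 0.095, adjusted p = 1.35e-07). The meprin subunit Mep1b fell by 2.56 (SE 0.12, adjusted p = 1.07e-06).

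Of 17 substrates 9 rose and 0 fell (11 higher and 3 lower at an unadjusted p under 0.05 in limma), with a median log2 fold change of 1.01. Elastin (Eln), at 1.01, was no longer called after either rescaling, with array weights, or without Pax7-GFP replicate 1 or 2 or ES replicate 1 or 3, at 0.95 to 0.99, which left 8. Fbn2, a fibrillin of fetal microfibrils, rose by 3.95 (SE 0.16, adjusted p = 5.11e-07), with 9.48, 8.83 and 8.92 on the Pax7-GFP arrays, against 5.18, 5.13 and 5.09 on the ES arrays. Dcn, which encodes decorin, rose by 3.03 (SE 0.21, adjusted p = 9.94e-06) and Col3a1, a fibrillar collagen, by 2.53 (SE 0.14, adjusted p = 2.50e-06). Dcn and Col3a1 are also in the fibroblast list given above. Fn1, which encodes fibronectin, and Nid1, a basement membrane protein, were at -0.56 and -0.68, past the adjusted p with under 2-fold.

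**Figure D5:**
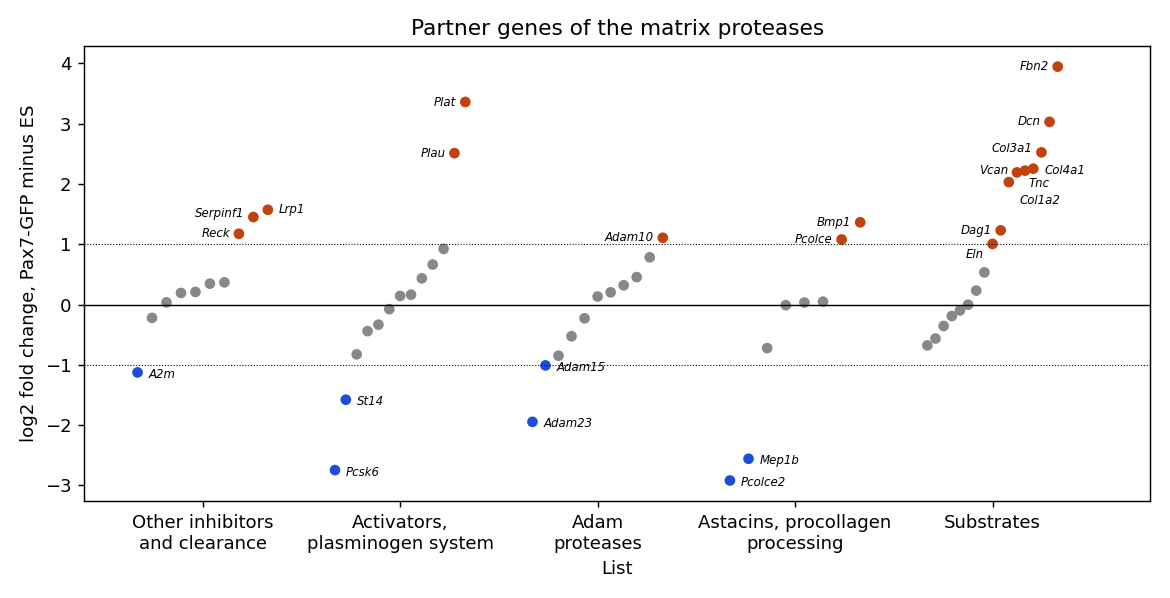
Log2 fold changes of partner genes, Pax7-GFP minus ES, by list and ordered by size within each; each point is 1 gene, orange rose, blue fell, grey was not called, and called genes are named. Substrates have 9 orange and 0 blue points, and the astacin list 2 of each.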

How the data were processed

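Expression was measured on single-colour microarrays in 6 samples, 3 Pax7-GFP and 3 ES. Per the labels' protocols, biotin-labelled cRNA came from a double amplification. The deposited log2 values are RMA signals made in R 2.12.1, per the submitters' processing notes. RMA compresses folds near background. The probe set definition and genome build are not given by the sources at hand here.

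GEO's platform annotation of 2022 supplied the gene names: 23521 rows had 1 symbol, 1814 had several and 16010 had none here. For a gene with several such probe sets, the brightest on average over the 6 arrays was used (22180 genes). Groups came from the sample titles. Groups were compared with limma 3.58.1 in R 4.3.3 (lmFit, eBayes, two-sided) over all genes with Benjamini-Hochberg adjustment, and every adjusted p in the text is from limma. SE is moderated, and the p-values measure only sample-to-sample spread, which may be technical. The number of arrays limits the precision. The fit was tested on simulated data. With 3 samples against 3, an exact permutation test of a single gene cannot go below p = 0.1, so none was run. The members and lists were chosen with earlier results of these data known. Fully described were called members and Timps, and per list the 3 largest called changes with the largest in the other direction. Fn1, Nid1, Eln, Postn, Lum, Col1a1, Cd68, Laptm5, Tyrobp, Lyz2, Furin, Pcolce, Acan, Bcan and Ncan were named after their values were seen. Same-numbered samples did not deviate together, with correlations over genes of -0.108, -0.220 and 0.0070, against -0.0774 to 0.195 for other numbers. Same-numbered samples were therefore not treated as pairs. This check cannot tell whether they shared an origin. Alternatives changed scaling, floor, filter, probe set rule, thresholds, variance prior, array weights, block and arrays, and their use on the partner and marker lists was added after seeing the data.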

Additional observations from a re-analysis of the deposited data

How the results depend on the processing

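Scaling, a signal floor, leaving out dim genes, other probe set rules, the variance prior and array weights left 8 to 10 members called, and with the replicate number as a block the same fit called 9 members and 3213 genes. No called member changed sign or lost its call under these settings, except that Mmp13 was not tested once dim genes were left out. Without single arrays 9 to 11 members and 3169 to 3309 genes were called, with 5 to 7 Adamts, 3 Mmp, 0 Adamtsl and 1 Timp gene. Thresholds moved the counts by construction. With no minimum fold 9126 genes and 21 members passed, with 6 Mmp, 12 Adamts, 1 Adamtsl and 2 Timp genes. A 4-fold minimum kept 1010 genes and 2 members, 1 Mmp (Mmp2), 1 Adamts (Adamts1) and 0 Timp genes, and limma's test against 2-fold kept 1713 genes and 2 members, again 1 Mmp (Mmp2), 1 Adamts (Adamts1) and 0 Timp genes. Leaving the threshold changes aside, the alternatives gave 337 fold changes of named members. Of these, 330 stayed on the same side of the call and 7, all of Adamts7 or Adamts9, moved into it. Low signals, below the array median on all 6 arrays for 8 of its 10 genes, limit what can be said of the chromosome 9 cluster.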
